A study of Homo sapiens with 4 samples.

Results

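The 50 antiviral interferon-stimulated genes described here were taken by symbol from GENCODE 44 and are 50 of its 20033 protein-coding genes. They encode sensors of viral RNA, proteins that block the entry, translation or replication of viruses, the ISG15 conjugation system, nuclear body proteins and other products commonly induced by interferon. All 50 symbols were found. A gene was counted as having a promoter peak when a FLI1 peak overlapped the 3 kb either side of the transcription start site (TSS) of any of its transcripts, and as having a distal peak when a peak outside those windows lay within 50 kb of a TSS.

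Flag ChIP-seq, the sequencing of DNA crosslinked to a tagged protein and precipitated with an antibody to the tag, used HK1 cells, a nasopharyngeal carcinoma line. The cells of both groups overexpressed Flag-FLI1 and differed in treatment, PBS (the control) or IFN-γ for 24 h. Each group had 1 library, so an effect of the treatment could not be tested, and gene expression is not analysed here. The tagged protein was overexpressed, so the peaks are those of Flag-FLI1 and not of FLI1 at its endogenous level.

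Interferons act through receptors at the cell surface that activate transcription factors in the cytoplasm. Type I interferons assemble the ISGF3 complex, which binds the interferon-stimulated response element (ISRE), a pair of GAAA tetramers a short gap apart. IFN-γ acts mainly through the gamma-activated site (GAS), a palindrome of TTC and GAA. FLI1 belongs to the ETS family, whose members recognise a GGAA core, and many genes of the antiviral group respond to both kinds of interferon.

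The control list held 30819 peaks and the IFN-γ list 39654. Fold enrichment is the number of fragments piled up at the summit of a peak plus 1, over the local background plus 1, as the peak caller defines it. The pileup was solved from the deposited fold enrichment and p-value, and its median was 16 fragments over all control peaks and 22 fragments over all IFN-γ peaks. The lowest backgrounds differed by a factor of 1.46, which was used as the relative depth. Peaks were called for each library separately, so a gene without a peak was under the calling limit at that depth and was not shown to be unbound.

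Promoter peaks were found at 29 of the 50 genes (58%) in the control library, against 61.9% of all protein-coding genes, and at 35 (70%) in the IFN-γ library, against 59.7%. Of the 50 genes, 27 (54%) had a promoter peak in both libraries, against 56.0% of coding genes. A promoter peak in the IFN-γ list alone was found at 8 genes (16%), against 3.70%, and in the control list alone at 2 genes (4%), against 5.90%. The remaining 13 genes (26%) had none in either list, against 34.4%. The group was thus close to the background in its share of genes with a peak in both lists and above it in its share with a peak in the IFN-γ list alone. The antiviral genes have a median of 8.5 annotated TSSs against 5 for all coding genes, which gives them more promoter sequence to overlap. When only the main TSS of each gene was used (the MANE Select transcript), 25 genes had a promoter peak in the control library against 57.4% of coding genes, 33 had one in the IFN-γ library against 54.1%, and 10 had one in the IFN-γ list alone against 3.04%.

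**Figure D1:**
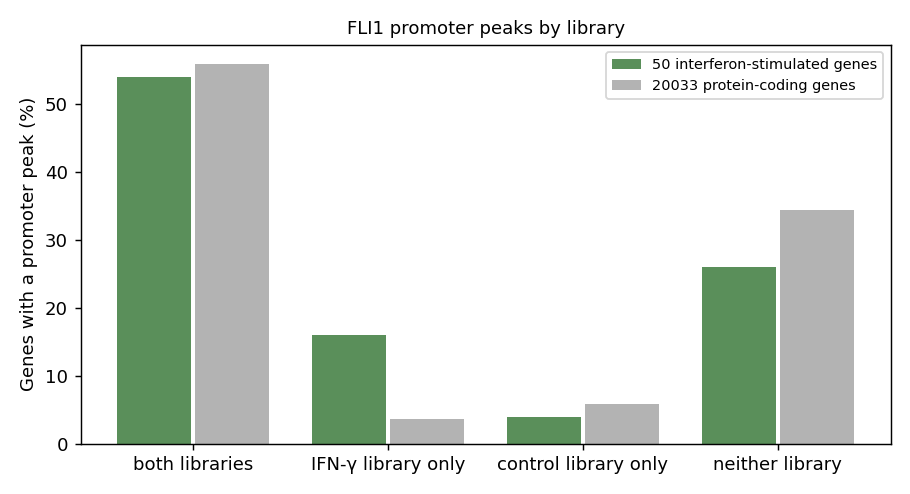
Share of genes (vertical axis, percent) with a FLI1 promoter peak in both libraries, in 1 library or in neither. Green bars are the 50 antiviral genes and grey bars the 20033 protein-coding genes; the green bar for the IFN-γ library alone stands at 16% beside 3.70%, and the bars for both libraries stand at 54% and 56.0%.

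Among the sensors of viral RNA, *RIGI* and *IFIH1*, the cytoplasmic helicases RIG-I and MDA5, had promoter peaks in both libraries. The *RIGI* peak had 24 fragments and a fold of 10.2 in the control library and 39 fragments and a fold of 8.17 in the IFN-γ library, with summits 106 and 127 bp upstream of the main TSS. The *IFIH1* peak had 10 fragments at a fold of 5.35 and 18 fragments at a fold of 7.03. Its summits lay 165 and 318 bp upstream of the *IFIH1* TSS, and nearer to TSSs of *GCA*, at 9 and 32 bp. *RIGI* and *IFIH1* thus had more fragments and not always a higher fold in the deeper library. *DHX58*, which encodes the regulatory helicase LGP2, had no promoter peak in either library.

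The IFIT proteins bind viral RNA and restrain its translation. Of their 4 genes, 3 had promoter peaks in both libraries. *IFIT2* had 14 fragments at a fold of 5.61 in the control library and 28 fragments at a fold of 8.84 in the IFN-γ library. *IFIT3* had 17 fragments at a fold of 4.89 and 41 fragments at a fold of 11.8, but the summits lay on opposite sides of the TSS, 113 bp upstream in the control library and 320 bp downstream in the IFN-γ library. *IFIT5* had 16 fragments at a fold of 3.63 and 28 fragments at a fold of 7.57, and at a stricter q-value cutoff of 1e-05 its promoter peak stayed in the IFN-γ list alone. All 3 had the higher fold in the IFN-γ library. *IFIT1*, the remaining gene of the cluster, had no promoter peak in either.

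The genes of the IFITM proteins, which hinder the fusion of viral and cell membranes, lie side by side on chromosome 11, so the same peak can count for several of them. A peak at the TSS of *IFITM2* also fell in the promoter window of *IFITM1*, with 17 fragments at a fold of 8.76 in the control library and 38 fragments at a fold of 11.2 in the IFN-γ library. At the main TSS of *IFITM1* itself, a peak was called in the IFN-γ library alone (chr11:313705-314394, 19 fragments, fold 5.75). At the main TSS of *IFITM3* the reverse was seen, a peak in the control library alone (chr11:320700-320955, 10 fragments, fold 5.35). The 2 neighbours thus differed at their own TSSs in which library had the peak, although each counts as present in both libraries through a second site. *BST2*, whose product tethers budding virions to the cell, had 13 fragments at a fold of 6.81 and 19 fragments at a fold of 5.22. These summits lay 791 and 798 bp upstream of the *BST2* TSS, and nearer to a TSS of *MVB12A*, at 276 and 283 bp.

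*MX1* and *MX2* encode dynamin-like GTPases that block early steps of viral replication. The *MX1* peak lay at an upstream alternative TSS, 6008 bp from the main TSS in the control library and 5917 bp in the IFN-γ library, with 16 fragments at a fold of 7.93 and 33 fragments at a fold of 9.37. No peak in either list overlapped the promoter window of the main *MX1* TSS. *MX2* had a weak control peak near an internal TSS (8 fragments, fold 3.70), and its main TSS had a peak in the IFN-γ library alone (chr21:41361822-41362188, 14 fragments, fold 5.41).

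The oligoadenylate synthetases, which make the messenger that activates RNase L, and the other enzymes acting on RNA and nucleotides held 5 of the 8 genes with a promoter peak in the IFN-γ list alone. This class held 11 of the 50 genes, and the classes were drawn up with earlier results of these data known. *OASL* had 31 fragments at a fold of 9.20 near an internal TSS and 14 fragments at a fold of 5.25 at its main TSS. *OAS1* had 9 fragments at a fold of 3.08, and *SAMD9* had 11 fragments at a fold of 3.98. *RSAD2*, which encodes viperin, and *CMPK2*, a mitochondrial nucleotide kinase gene, lie head to head and shared a peak of 13 fragments at a fold of 5.52, 17 bp upstream of the *CMPK2* TSS. That summit lay 11853 bp upstream of the main *RSAD2* TSS. When only the main TSS was used, *RSAD2* had no promoter peak in either library. These 5 genes therefore rest on 4 peaks at the strongest sites, and the peak of *OAS1* was lost at a q-value cutoff of 0.01 and that of *SAMD9* at 1e-05.

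*ADAR*, whose product edits adenosines in double-stranded RNA, had the strongest promoter peak among these enzymes (chr1:154607733-154608740 in the control library). Its summit had 69 fragments at a fold of 29.9 in the control library and 77 fragments at a fold of 17.2 in the IFN-γ library, 114 and 122 bp upstream of the TSS. *ISG20*, an exonuclease gene, had 47 fragments at a fold of 15.3 and 62 fragments at a fold of 12.9. *OAS3* had 16 fragments at a fold of 8.27 and 23 fragments at a fold of 4.90. In all 3 the fold was lower in the IFN-γ library. Scaled for depth, their IFN-γ over control pileups were 0.766, 0.906 and 0.987, against a median of 0.886 over all promoter pairs. *EIF2AK2*, the gene of the kinase PKR, had a promoter peak in the control library alone, with 13 fragments at a fold of 5.23 and a summit 333 bp downstream of the TSS. *OAS2* and *SAMD9L* had no promoter peak in either.

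ISG15 is a ubiquitin-like protein attached to other proteins by a dedicated set of enzymes. At the main TSS of *ISG15* a peak had 14 fragments at a fold of 4.98 in the control library and 28 fragments at a fold of 11.0 in the IFN-γ library. *HERC5*, which encodes the main ISG15 ligase, had 26 fragments at a fold of 11.5 and 47 fragments at a fold of 18.9, with summits 274 and 287 bp upstream of the TSS. *HERC6* had 11 fragments at a fold of 5.84 and 13 fragments at a fold of 4.02. *ISG15* and *HERC5* thus had the higher fold in the IFN-γ library and *HERC6* in the control library. *USP18*, the gene of the protease that removes ISG15, had a promoter peak in the control list alone (9 fragments, fold 2.99), which was lost at a q-value cutoff of 0.01, and *UBE2L6*, the gene of the conjugating enzyme, had none in either.

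Of the nuclear body and DNA-sensing genes, *PML*, *SP110* and *IFI16* had promoter peaks in both libraries. The window of *PML* held the strongest promoter peak of the whole group, with 110 fragments at a fold of 41.5 in the control library (chr15:73991840-73992517) and 82 fragments at a fold of 26.6 in the IFN-γ library. That summit lay over 2 kb upstream of the main *PML* TSS and within 12 bp of a TSS of *STOML1*, the gene on the other side. A peak at the main *PML* TSS was called in the IFN-γ library alone (chr15:73994501-73995299, 18 fragments, fold 4.82). *SP110* had 22 fragments at a fold of 11.2 and 70 fragments at a fold of 15.6 at its TSS. *IFI16*, a sensor of foreign DNA, had 24 fragments at a fold of 10.9 and 52 fragments at a fold of 17.0 at a downstream alternative TSS. *SP100*, the gene of a nuclear body component related to SP110, had the strongest promoter peak among genes called in the IFN-γ list alone, with 57 fragments at a fold of 15.1 and a summit 25 bp downstream of its TSS (chr2:230416067-230416616).

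*PARP9* and *DTX3L*, which encode an ADP-ribosyltransferase and its ubiquitin ligase partner, share a bidirectional promoter, where a peak had 25 fragments at a fold of 9.84 in the control library and 38 fragments at a fold of 8.01 in the IFN-γ library. *PARP14* had 30 fragments in each library, at folds of 10.3 and 7.06. *PARP12*, whose product is a zinc finger ADP-ribosyltransferase, had 40 fragments at a fold of 18.2 and 21 fragments at a fold of 5.26. All 4 genes of this class had promoter peaks in both libraries, each with the lower fold in the IFN-γ library. Scaled for depth, the IFN-γ over control pileup was 1.04 at the shared promoter, 0.687 at *PARP14* and 0.361 at *PARP12*. The median over all promoter pairs was 0.886, so a lower fold did not always go with a lower scaled pileup.

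The TRIM proteins are ubiquitin ligases. *TRIM25*, which modifies RIG-I, had 2 sites that exchanged rank. At the TSS the control peak had 40 fragments at a fold of 15.3 and the IFN-γ peak 38 fragments at a fold of 8.59. At an upstream site the control peak had 16 fragments at a fold of 7.26 and the IFN-γ peak 78 fragments at a fold of 18.9, with summits 2608 and 2525 bp from the TSS. *TRIM21*, a cytosolic antibody receptor gene, had 33 fragments at a fold of 11.3 and 88 fragments at a fold of 19.6. *TRIM22* had a promoter peak in the IFN-γ list alone (22 fragments, fold 4.70). The upstream *TRIM25* site and *TRIM21* thus had the higher fold in the IFN-γ library, and the *TRIM25* TSS in the control library. The upstream *TRIM25* site lies on a run of at least 4 GGAA units, 1 bp from the IFN-γ summit and 15 bp from the control summit.

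Among the 7 other induced genes, which include those of the small interferon-induced proteins IFI6 and IFI27, only *XAF1* had a promoter peak, with 18 fragments at a fold of 6.82 and 63 fragments at a fold of 18.8. *XAF1* encodes a partner of the apoptosis inhibitor XIAP, and its summits lay over 3 kb upstream of the main TSS. With a promoter window of 1 kb *XAF1* had no promoter peak in either library. When only the main TSS was used, it had one in the IFN-γ list alone. *IFI6*, *IFI27*, *IFI35*, *IFI44*, *IFI44L* and *EPSTI1* had none in either library. Of the apolipoprotein L genes, *APOL6* had a peak 14 bp downstream of its TSS in the IFN-γ list alone (19 fragments, fold 6.82), and *APOL1* and *APOL2* had none.

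**Figure D2:**
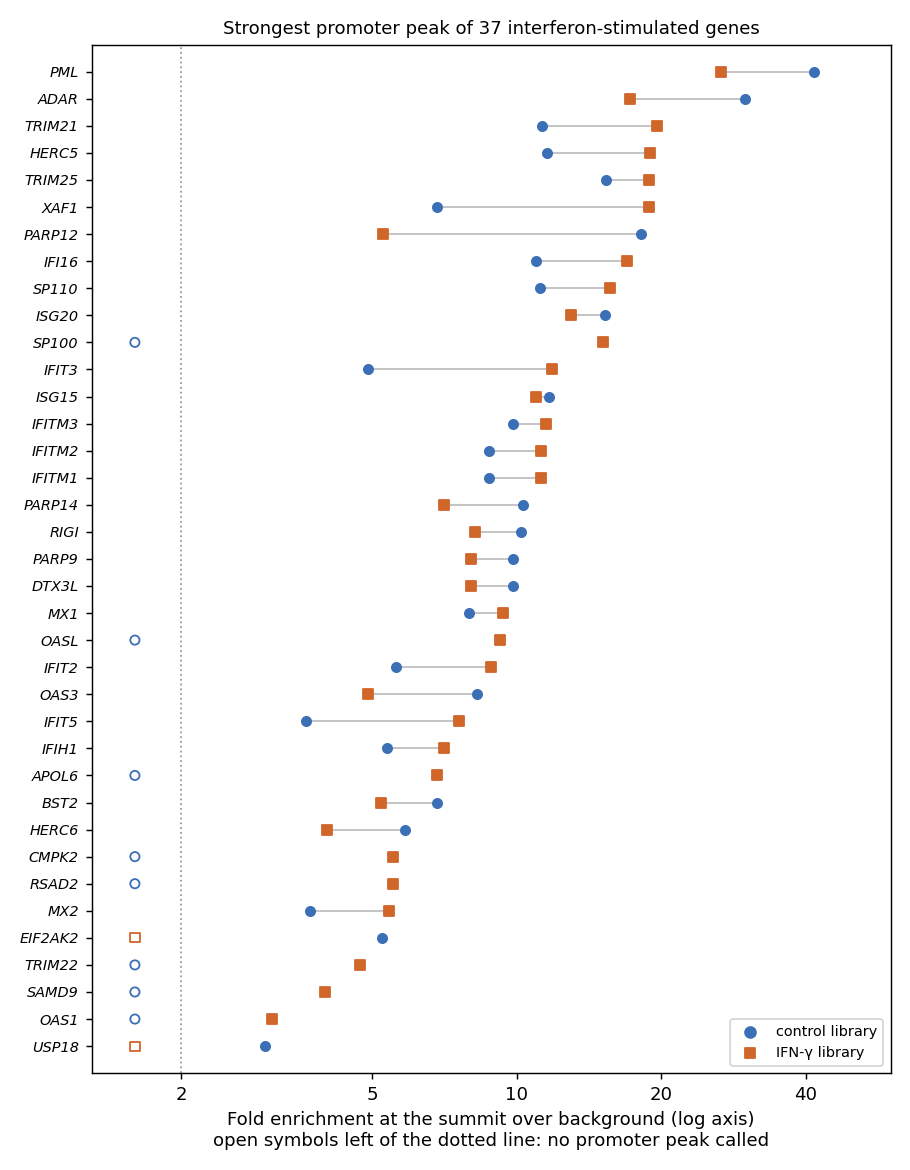
Fold enrichment (horizontal axis) of the strongest promoter peak of each of the 37 antiviral genes with one, in the control and IFN-γ libraries. *PML* stands highest at 41.5 and 26.6, followed in the control library by *ADAR* at 29.9; open symbols left of the dotted line mark genes with no promoter peak in that list. The points of *TRIM25*, *ISG15* and *MX2* belong to different sites. For *TRIM25* these are the TSS in the control library and the upstream site in the IFN-γ library. For *ISG15* and *MX2* they are a site far from the main TSS in the control library and the main TSS in the IFN-γ library.

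The 10 genes with the strongest promoter peaks by mean rank over both lists were *PML*, *ADAR*, *TRIM25*, *ISG20*, *TRIM21*, *HERC5*, *SP110*, *IFI16*, *ISG15* and *RIGI*. Their mean ranks ran from the top 2.68% of a list for *PML* to the top 27.0% for *RIGI*. For *ISG15* the control rank comes from a peak in *HES4*, 14113 bp upstream of the main *ISG15* TSS. Over all the promoter peaks of the group the strength was not high: the 41 control peaks had a median fold of 6.81 against 7.81 for all 17536 promoter peaks of that library, and the 52 IFN-γ peaks had a median fold of 7.05 against 6.80 for 18627. The strongest summit lay within 500 bp of the main TSS for 19 of 29 genes in the control library and 24 of 35 in the IFN-γ library. It lay over 3 kb from the main TSS for 7 genes in each library. The TSS nearest to it was the gene's own for 21 of 29 and 25 of 35 genes. These counts were not set beside all coding genes.

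Depth differed between the libraries, so the pileups of the genes called in 1 list were also given at the depth of the other. The *SP100* pileup corresponds to 39.1 fragments at the control depth, where 8 fragments over the scaled background would have reached the lowest p-value of the control list. The same 2 numbers were 21.3 and 8 for *OASL*, 15.1 and 10 for *TRIM22*, 13.0 and 7 for *APOL6*, 8.93 and 6 for *RSAD2* and *CMPK2*, 7.55 and 7 for *SAMD9*, and 6.18 and 7 for *OAS1*. The *OAS1* peak would thus have been under the control limit at an equal share of fragments, that of *SAMD9* stood just above it, and *SP100* stood furthest above. For the control peaks, the numbers at the IFN-γ depth were 18.9 and 9 for *EIF2AK2* and 13.1 and 11 for *USP18*. This calculation assumes that the background scales with depth and was chosen after the values were seen. When the IFN-γ list was cut to the length of the control list, 6 genes had a promoter peak in that list alone, against 2.21% of coding genes.

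Where both lists had an overlapping promoter peak, the IFN-γ pileup was divided by the control pileup and by the relative depth. The 32 peak pairs of the antiviral genes had a median ratio of 1.16 with quartiles of 0.821 and 1.43, and the 13579 promoter pairs of all genes had a median of 0.886 with quartiles of 0.687 and 1.16. Exact Clopper-Pearson 95% intervals, which cover counting error only, lay above the median of all pairs for 7 of the 32 pairs, against 11.1% of all pairs, and below it for 2, against 5.90%. The group was thus shifted upwards in its median. The 7 pairs above were an upstream site of *TRIM25* at 3.35 (1.94 to 6.14), a site 10 kb inside *ISG20* at 2.47 (1.20 to 5.59), *XAF1* at 2.40 (1.41 to 4.31), *SP110* at 2.19 (1.34 to 3.71), *TRIM21* at 1.83 (1.21 to 2.82), *IFIT3* at 1.66 (0.921 to 3.11) and *IFI16* at 1.49 (0.901 to 2.52). The intervals of *IFIT3* and *IFI16* included 1. The 2 pairs below were *PML* at 0.512 (0.380 to 0.688) and *PARP12* at 0.361 (0.202 to 0.626). In 26 of the 32 pairs the summits lay within 100 bp of each other, and of these 5 were above and 1 below. The pairs of *IFIT3*, *ISG20* and *PARP12* were not among them, so their ratios set different positions side by side. Pairs also differed with distance, taken as the mean over both summits of the distance to the nearest TSS. Among all genes, pairs with a mean distance of at most 500 bp had a median ratio of 0.834 and the others 1.09. Among the antiviral genes these medians were 1.07 over 25 pairs and 1.37 over 7. This split was chosen after the values were seen.

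**Figure D3:**
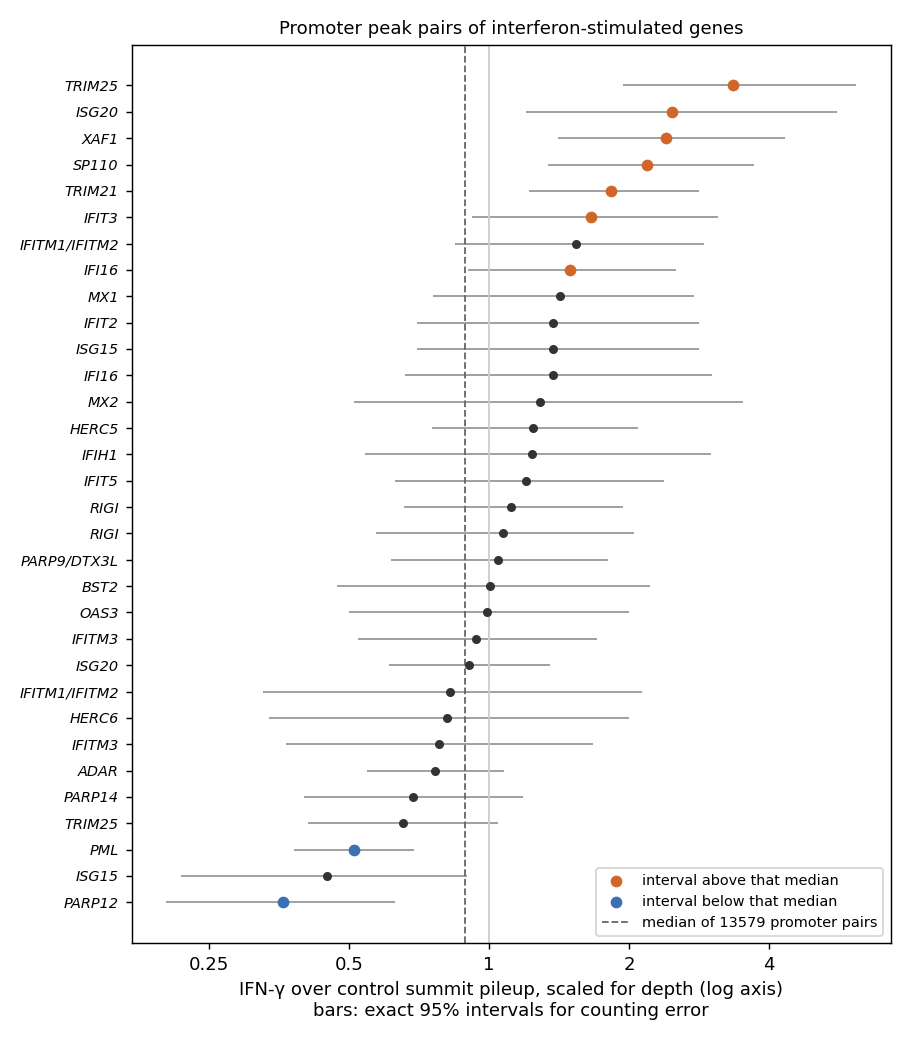
Depth-scaled ratio of IFN-γ to control pileup (horizontal axis, log scale) for the 32 promoter peak pairs of the antiviral genes, with exact 95% intervals and the median of all 13579 promoter pairs (0.886) as a line. The upstream *TRIM25* site is highest at 3.35 and *PARP12* lowest at 0.361.

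To see which response elements stood near the summits, the GRCh38 sequence within 100 bp of each promoter summit was searched on both strands. The ISRE core was taken as a pair of GAAA tetramers 2 bases apart, the GAS core as TTCNNNGAA, and the ETS octamers as CAGGAAGT and CCGGAAGT. The sequences below, written 5′ to 3′ on the strand of the gene, are examples with an ISRE core near the summit close to the TSS of the gene, with the matches to these motifs in capitals. Positions are those of GRCh38.
IFIT3, chr10:89327826-89327899, plus strand: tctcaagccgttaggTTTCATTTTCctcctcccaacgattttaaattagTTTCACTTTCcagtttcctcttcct
IFITM1, chr11:314024-314053, plus strand: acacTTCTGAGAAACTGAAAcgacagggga
IFITM3, chr11:320871-320927, minus strand: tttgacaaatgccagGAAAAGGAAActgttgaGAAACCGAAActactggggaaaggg
OAS3, chr12:112938321-112938350, plus strand: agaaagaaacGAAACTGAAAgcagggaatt
ISG15, chr1:1013369-1013414, plus strand: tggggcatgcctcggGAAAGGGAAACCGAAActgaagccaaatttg
IFIH1, chr2:162318813-162318858, minus strand: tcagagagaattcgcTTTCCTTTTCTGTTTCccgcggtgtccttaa
PARP12, chr7:140062937-140062976, minus strand: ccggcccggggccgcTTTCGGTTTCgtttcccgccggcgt

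*IFIT3*, *IFITM3*, *ISG15* and *IFIH1* held more than 1 core in these stretches, and in *ISG15* and *IFIH1* the cores overlap in a run of tetramers. In *IFITM1* a GAS core ends inside the ISRE core. The cores of *ISG15* and *OAS3* were near the summit in both libraries, those of *IFIT3*, *IFIH1*, *IFITM3* and *PARP12* in the control library, and those of *IFITM1* in the IFN-γ library, where alone its TSS had a peak. *PARP14* and *USP18* also held a core near a control summit, and *ISG20*, *HERC6* and an internal peak of *IFIT3* near an IFN-γ summit. The *HERC6* summit lay 60.5 kb and the *IFIT3* summit 8.26 kb downstream of the main TSS, and the *IFIT3* peak also held a GGAA run. Both are counted in the shares below.

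For comparison, the ETS octamers near the promoter summits of 3 strong peaks, chosen among peaks that hold one, are shown in capitals, on the strand of the gene in GRCh38.
TRIM25, chr17:56914070-56914107, minus strand: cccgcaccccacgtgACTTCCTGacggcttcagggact
SP110, chr2:230219962-230219991, minus strand: tcaaagcacagACTTCCTGttttgcctgct
SP100, chr2:230416183-230416212, plus strand: tctgtcggccgACTTCCTGcttggggcctg

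All 3 are the octamer CAGGAAGT read on the opposite strand. The strongest promoter peaks of *PML*, *ADAR*, *ISG20*, *TRIM21*, *HERC5*, *IFI16*, *ISG15* and *RIGI* held no ETS octamer within 100 bp of the summit. *SP110* and *SP100* are neighbours from the same family, and their matches share the bases ACTTCCTG with different flanks.

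An ISRE core lay within 100 bp of the summit in 8 of the 41 control promoter peaks of the group (19.5%), against 2.48% of all control promoter peaks, and in 6 of the 52 IFN-γ peaks (11.5%), against 4.51%. A GAS core was found in 8 control peaks (19.5%, against 4.44%) and in 9 IFN-γ peaks (17.3%, against 5.19%). Genes with a GAS core near a summit in at least 1 library were *IFITM1*, *MX1*, *OAS1*, *ISG20*, *IFI16*, *SP110*, *PARP9* and *DTX3L* (the shared peak), *TRIM22*, *TRIM25*, *HERC5* and *APOL6*. The share with each interferon element was thus higher at the antiviral promoters than at promoter peaks in general. The FLI1-type motifs were close to the background in this window: an ETS octamer stood in 5 control peaks (12.2%, against 13.4%) and 8 IFN-γ peaks (15.4%, against 15.0%), and a run of at least 4 GGAA units in 1 (2.44%, against 2.17%) and 2 (3.85%, against 3.87%). Within 50 bp of the summit the ETS octamer was in 4.88% of the control peaks of the group, against 10.9%, and in 7.69% of the IFN-γ peaks, against 12.9%, below the background. A GGAA core, common in any sequence of this length, stood in all 41 control peaks, against 94.3%, and in 51 of the 52 IFN-γ peaks (98.1%, against 97.1%). The AP-1 site TGANTCA was found in 8 control peaks (19.5%, against 10.1%) and 7 IFN-γ peaks (13.5%, against 13.6%).

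**Figure D4:**
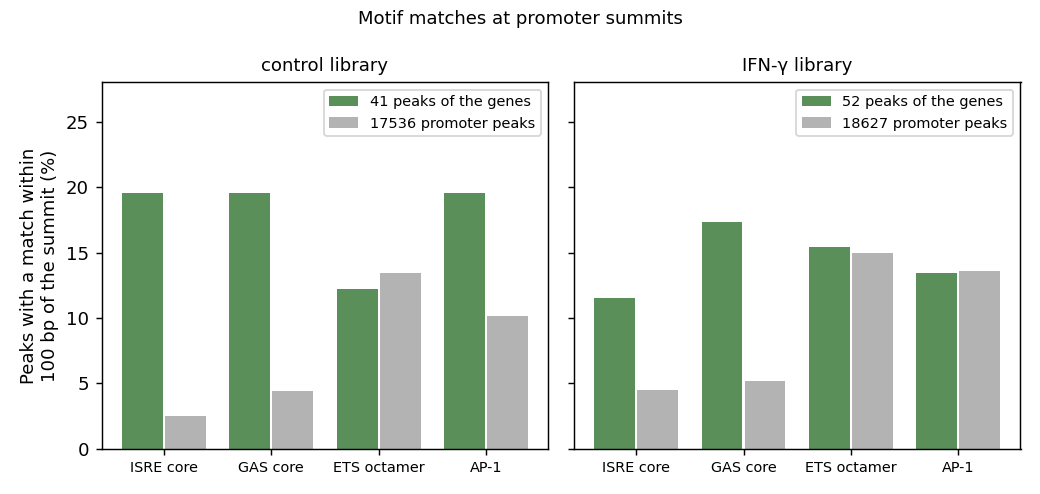
Share of promoter peaks (percent) with each motif within 100 bp of the summit, for the antiviral genes and for all promoter peaks, in the control and IFN-γ libraries. ISRE cores stand at 19.5% against 2.48% in the control library and 11.5% against 4.51% in the IFN-γ library, while ETS octamers stand at 12.2% against 13.4% and 15.4% against 15.0%.

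The elements were also counted in the promoters themselves, whether bound or not, in RefSeq windows of GRCh38.p14 from 250 bases before to 50 after the start of each gene. Windows were given for 38 of the 50 genes, and those of *IFIT2*, *IFITM2*, *MX2*, *OAS2*, *OASL*, *DHX58*, *PML*, *TRIM22*, *USP18*, *APOL1*, *APOL2* and *APOL6* were not used here. An ISRE core was in 23 of the 38 windows (60.5%), against 3.18% of 15345 coding gene windows, and an ETS octamer was in 4 (10.5%, against 9.23%), those of *OAS3*, *SP100*, *TRIM25* and *BST2*. A GAS core was in 7 (18.4%, against 6.95%). Among genes with promoter peaks in both libraries, 15 of 23 windows held an ISRE core, among genes with one in the IFN-γ list alone 1 of 5, and among genes with none in either 6 of 9. Windows with a core were thus common both among genes with peaks in both libraries and among genes with none. *IFIT1* and *IFI44L* are shown as genes with ISRE cores in the promoter (capitals, GRCh38, strand of the gene) and no promoter peak in either library.
IFIT1, chr10:89392492-89392544, plus strand: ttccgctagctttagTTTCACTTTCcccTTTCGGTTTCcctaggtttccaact
IFI44L, chr1:78620269-78620308, plus strand: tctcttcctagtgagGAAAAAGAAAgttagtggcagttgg

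An ISRE core can itself contain the GGAA tetramer that ETS factors recognise. Of the 41 cores in the windows of the antiviral genes, 24 (58.5%) overlapped a GGAA, and 299 of 541 (55.3%) did so over all coding genes. Among genes with an ISRE core in the window and a promoter peak, the summit nearest to a core lay a median of 152.5 bp from it in the control library and 220 bp in the IFN-γ library, over 16 genes each. The distance was under 100 bp for 6 of the 16 genes in the control library and for 3 of 16 in the IFN-γ library. It was over 250 bp for 5 and 6 of the 16. The summits thus ranged from close to the element to far from it, and the median distance was the longer in the IFN-γ library. The 2 sets of genes differ, with *EIF2AK2* in the control set alone and *SAMD9* in the IFN-γ set alone. Without a peak at the main TSS the distance was to another site, 3853 bp for *IFITM1* in the control library and 1291 bp for *IFITM3* in the IFN-γ library. The medians therefore do not compare summits over the same sites.

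Distal peaks were found at 37 of the 50 genes (74%) in the control library, against 72.0% of coding genes, and at 44 (88%) in the IFN-γ library, against 78.9%. Distal windows take in promoters of other genes, and without those the counts fell to 24, against 41.1%, and 31, against 53.1%. The strongest distal site of the group lay 52 kb downstream of the main *PARP14* TSS (chr3:122732740-122733464 in the IFN-γ library), within 50 kb of another of its TSSs and closer to *HSPBAP1*. It had 119 fragments at a fold of 41.0 in the control library and 255 fragments at a fold of 48.8 in the IFN-γ library, the top 0.853% and 0.227% of the lists, and its ratio was 1.47 (1.18 to 1.85). Intergenic sequence near the IFITM genes held a site shared by their windows (chr11:355656-356453 in the control library) with 54 fragments at a fold of 24.1 and 63 fragments at a fold of 19.7.

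*EPSTI1*, *IFI35* and *UBE2L6* had no promoter peak and had a distal peak in the top 10% of a list. How common such distal peaks are among all coding genes without a promoter peak is not given here. The *EPSTI1* site lay 4.47 kb upstream of the main TSS (chr13:42996451-42997093 in the IFN-γ library) and had 17 fragments in the control library (top 47.8% of that list) and 86 fragments at a fold of 24.4 in the IFN-γ library. Near *IFI35* the promoter of *RPL27* had 59 fragments at a fold of 17.9 and 121 fragments at a fold of 26.8. A second site, in an intron of *RPL27*, 4.57 kb upstream of the main *IFI35* TSS, had 30 fragments at a fold of 12.3 and 85 fragments at a fold of 28.3. For *UBE2L6* the site was the promoter of *TIMM10*, with 44 fragments in the control library and 81 at a fold of 26.2 in the IFN-γ library. *EPSTI1* and *IFI35* thus had strong IFN-γ peaks just outside a promoter window of 3 kb, while that of *UBE2L6* belongs to the promoter of another gene. *IFI44L*, *APOL1* and *APOL2* had neither a promoter nor a distal peak in either list.

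Away from promoters, 23 distal pairs near the antiviral genes had a median ratio of 1.37, against 1.24 over 9807 distal pairs in the genome. The interval lay above the median of all distal pairs for 3 of the 23, against 9.50% of all, and below it for 3, against 5.11%. Those above were the *EPSTI1* site at 3.47 (2.05 to 6.24), a site in an intron of *IFIT3* and *LIPA* within 50 kb of *IFIT1*, *IFIT2* and *IFIT3* at 3.18 (1.64 to 6.78), and the *IFI35* site at 1.95 (1.27 to 3.06). The *IFIT* site had 11 control and 51 IFN-γ fragments (chr10:89346423-89347042). The *EPSTI1* and *IFIT* sites thus had among the largest ratios measured near the group, close to that of the upstream *TRIM25* site. Those below were a site in an exon of *AEN* near *ISG20* at 0.839 (0.577 to 1.23), the IFITM site at 0.801 (0.548 to 1.17) and a site near *PML* at 0.572 (0.269 to 1.20). As many distal intervals of the group thus lay below the median as above it.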

How the data were processed

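The 2 Flag-FLI1 peak lists of HK1 cells, 1 for each treatment, were used, and the input libraries are not analysed here. Per the methods and labels, the authors trimmed with cutadapt 1.18, used Bowtie2 2.3.4.1 for alignment against GRCh38 and Picard against duplicates, and ran MACS2 2.1.2 at a stated p cutoff of 0.01. Whether the input entered the calling is not given in the sources used here. For each peak the authors deposited the fold enrichment (a ratio), the −log10 of the p-value and q-value and the offset of the summit. The lowest deposited −log10 q was 1.30 for the control and 1.32 for IFN-γ.

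Pileups and backgrounds were solved from the fold and −log10 p with a largest relative error of 6.21e-06 and checked on simulated data. TSSs came from GENCODE 44. Pairs were the best overlapping peaks of both lists (at least 1 bp). Every member was named with its class. Values were given for the 10 strongest by mean rank, those with a promoter peak in 1 list, those with a distal peak in the top 10% of a list and no promoter peak, those sharing a peak, those whose ratio interval left out the median of all pairs, and those with an ISRE or GAS core within 100 bp of a summit. Further values were chosen after they were seen. The members, roles and lists were chosen with earlier results of these data known. A list of interferon signalling genes was counted but is not reported here. With 1 library per treatment no test was made. Intervals cover counting error only. Alternatives were q-value cutoffs, list lengths, window sizes, TSS sets, overlap rules, depth scalings and motif windows. The distal ratios were added after the data were examined. Python 3.11.15, pysam 0.24.0, pandas 2.3.3, scipy 1.17.1, numpy 2.4.6, samtools 1.23.1 and matplotlib 3.10.9 were used.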

Additional observations from a re-analysis of the deposited data

How the results depend on the processing

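No paired analysis was possible because each treatment had 1 library and no result came from a test. The counts of genes with promoter peaks and the median pair ratio kept within 1.5 times their values or within their spread under every alternative tried, except that 1 gene, *EIF2AK2*, had a promoter peak in the control list alone at a q-value cutoff of 0.01. The median ratio of the antiviral pairs ran from 1.09 to 1.31, and stayed above that of all pairs each time. Of the 27 genes with promoter peaks in both libraries, 20 kept that class in all 6 promoter alternatives, as did 5 of the 8 with a peak in the IFN-γ list alone, 1 of the 2 in the control list alone and 13 of the 13 with none. Without promoters of other genes, 24 genes had a distal peak in the control library. Motif counts moved most with the window. Within 50 bp of the summit, control peaks with an ISRE core, ETS octamer and AP-1 site numbered 4, 2 and 5 (9.76%, 4.88% and 12.2%, against 1.39%, 10.9% and 5.81% of all promoter peaks), and IFN-γ peaks with an ISRE core, GAS core, ETS octamer, AP-1 site and GGAA run numbered 3, 5, 4, 2 and 1 (5.77%, 9.62%, 7.69%, 3.85% and 1.92%, against 2.68%, 2.66%, 12.9%, 8.61% and 3.11%). Over whole peaks an ISRE core was in 16 control and 20 IFN-γ peaks (39.0% and 38.5%, against 6.66% and 9.66%), and a GAS core and AP-1 site in 15 and 13 IFN-γ peaks (28.8% and 25%, against 14.1% and 22.6%). At a q-value cutoff of 1e-05, control peaks with an ETS octamer, GAS core and AP-1 site numbered 3, 5 and 4 (9.68%, 16.1% and 12.9%, against 15.2%, 4.23% and 9.71%). Windows of different width hold different amounts of sequence. Promoter peaks of the group had a median pileup of 16 (control) and 23.5 fragments (IFN-γ), against 19 and 24 for all promoter peaks. Whether depth accounts for presence in 1 list alone was not tested.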

Other observations

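The guanylate-binding protein (GBP) and chemokine genes, which are also induced by IFN-γ, were set beside the antiviral group. Of 10 such genes, 2 had a promoter peak in the control library (*GBP3* and *GBP5*), against 61.9% of coding genes. In the IFN-γ library 4 had one (with *GBP4* and *CXCL11*), against 59.7%. Promoter peaks in both lists were found at 27 of 50 antiviral genes (54%) and 2 of 10 GBP and chemokine genes, against 56.0% of coding genes. In its share with peaks in both lists, the antiviral group was thus close to the background and the shorter list below it. A promoter peak in the IFN-γ list alone was found at 8 of 50 antiviral genes (16%) and 2 of 10 GBP and chemokine genes, against 3.70%. Both shares lay above the background there. The difference between the gene lists was not tested.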
